A study of Saccharomyces cerevisiae with 7 samples.

Results

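Ribosomes that contain Rps26, taken from an Rps26-depletion strain of Saccharomyces cerevisiae, were compared with ribosomes of a wild-type strain that carries a tagged Rps3. The members were chosen by the titles of the samples: the 3 libraries of the group Plus_Rps26 and the 1 library titled Rps3-TAP, called the group Rps3_TAP here, which are 4 of the 7 libraries of the series. Each library holds RNA that was recovered with ribosomes, and its values are counts of reads for 6341 features of the yeast genome. The remaining 3 libraries, of the group Minus_Rps26, enter the statistical fit and are quoted for single genes as a side-by-side value. They come from the same depletion strain as Plus_Rps26, with the same 0.2 µg/ml doxycycline and 4 h in glucose. Their lysates also spent 2 h on beads, and their labels name no sucrose gradient.

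The Plus_Rps26 cells derived from BY4741 (S288C) and carried HisMX6::pGAL1-Rps3 and NatMX6::pGAL1-Rps26A, the disruption Rps26B::KanMX6 and the plasmid pCM189--Rps3-TAP. In this genotype the GAL1 promoter, which is active in galactose and shut off by glucose, drives RPS3 and RPS26A, RPS26B is disrupted, and a plasmid supplies Rps3 with the TAP tag, an affinity handle that binds IgG. These cells reached mid-log phase in galactose medium (YPGal) that held doxycycline at 0.2 µg/ml, were washed, and spent 4 h in glucose medium (YPD) from an OD600 of 0.15. The Rps3_TAP cells derived from BY4741 (S288C), carried Rps3-TAP::HisMX6 and reached mid-log phase in glucose medium (YPD), with no doxycycline named in their labels. All cultures received 100 µg/ml cycloheximide, which stalls elongating ribosomes on their mRNAs, and all lysates spent 2 h on IgG beads. Plus_Rps26 is the untagged ribosome fraction that did not bind the beads and was collected from a 10% to 50% sucrose gradient, whereas Rps3_TAP is the bound fraction, released from the beads by TEV protease. Strain, growth history, tag and method of purification therefore change together between the groups, and their parts in any difference cannot be told apart.

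Rps26 is a protein of the small ribosomal subunit that sits beside the channel through which mRNA leaves the subunit, close to the bases upstream of the start codon. In yeast it is encoded by the near-identical genes RPS26A and RPS26B, and the chaperone Tsr2 delivers it to late pre-ribosomes. By the design of the depletion strain, ribosomes without the tag are those that incorporated Rps3 from the galactose-driven gene, before the shift to glucose. The comparison asks how the mRNAs bound to these Rps26-containing ribosomes differ from those bound to ribosomes of a strain with unaltered Rps26 genes.

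The Plus_Rps26 libraries held 9605899, 12387735 and 15279242 counts in features, and the Rps3_TAP library held 16145589. Plus_Rps26 replicate 1 stood apart from the other libraries of its group. Its log CPM (counts scaled to the size of the library) had a Pearson r of 0.973 with Minus_Rps26 replicate 1, against 0.922 and 0.911 with Plus_Rps26 replicates 2 and 3, whose r with each other was 0.965. Plus_Rps26 replicate 2 carries the same short name in its description as replicate 1, and its title was used here. The 3 Plus_Rps26 libraries are biological replicates per the series' design text. The Rps3_TAP library has no replicate, so it was assumed to vary like the libraries of the other groups, and p-values measure the spread among those. No total RNA of these cells is used here, so less of an mRNA in the cells and fewer of these ribosomes on it cannot be told apart, nor can fewer cells that hold it.

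The engineered genes and the marker URA3 gave the largest differences among called genes. RPS26A (YGL189C, VII:148229-148588) had 545, 1042 and 928 counts in the Plus_Rps26 libraries and 100566 counts in Rps3_TAP. That is 48.2, 111 and 96.9 CPM after TMM scaling in Plus_Rps26 and 10139.6 CPM in Rps3_TAP, which is 119-fold lower (log2 fold change -6.89 ± 0.53 SE, adjusted p = 0.000348, edgeR's quasi-likelihood test). RPS26B (YER131W, V:423952-424311), disrupted in the Plus_Rps26 strain, had 10, 142 and 11 counts in Plus_Rps26 and 14293 counts in Rps3_TAP (log2 fold change -7.99 ± 1.09, edgeR adjusted p = 0.00886). Every Plus_Rps26 library was far below Rps3_TAP at both genes, and the 142 counts in replicate 2 stood above the other libraries of its group. Without Plus_Rps26 replicate 2 the log2 fold change of RPS26B was -10.47, and with each other library left out it was -7.99 to -7.46. The ribosomes in this fraction are labelled as containing Rps26, so the mRNA level of its genes does not measure the protein on them.

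Beside RPS26A, the small unnamed open reading frame YGL188C-A (VII:148824-148964), whose span starts 235 bases from that of RPS26A, had 0, 0.957 and 0 CPM in Plus_Rps26 and 26.3 CPM in Rps3_TAP (edgeR adjusted p = 0.0417). This call was lost without Plus_Rps26 replicate 3, Minus_Rps26 replicate 1 or Minus_Rps26 replicate 3, where the adjusted p reached 0.0785. It was also lost with DESeq2 (0.515), with total-count scaling (0.121) and with the span length trend removed (0.0591). Whether its reads come from the RPS26A transcript was not tested.

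RPS3 (YNL178W) had 3937, 59278 and 79777 counts in Plus_Rps26 and 77600 in Rps3_TAP. The low value was that of replicate 1, so the Plus_Rps26 libraries spread over a wider range than their distance from Rps3_TAP, and no difference was called (log2 fold change -0.65 ± 1.09, edgeR adjusted p = 0.778). URA3, an enzyme of pyrimidine synthesis that is missing from BY4741 and often serves as a plasmid marker, had 286, 436 and 999 counts in Plus_Rps26 and 1 count in Rps3_TAP. Scaled to the TMM-adjusted library sizes, the Plus_Rps26 sum of 1721 counts was 564 times the Rps3_TAP count, with an exact 95% interval of 101 to 22276 that covers counting error only. HIS3 was not called, with 1701, 2963 and 2724 counts in Plus_Rps26 and 3114 in Rps3_TAP (log2 fold change -0.33 ± 0.46, edgeR adjusted p = 0.731). With total-count scaling its log2 fold change was 0.039 (edgeR adjusted p = 0.976). LEU2, also missing from BY4741, had 0, 0 and 7 counts in Plus_Rps26 and 0 in Rps3_TAP, and MET17 had 0 in all 4.

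Among the mating-type genes checked, those of MATa cells had far more counts than those of MATalpha cells in all 4 libraries. The a-factor gene MFA1 had 6141, 4707 and 3284 counts in Plus_Rps26 and 4293 in Rps3_TAP, and STE2, the receptor of MATa cells, had 5427, 4661 and 6444 in Plus_Rps26 and 3983 in Rps3_TAP. The alpha-factor gene MF(ALPHA)1 had 5, 1 and 6 counts in Plus_Rps26 and 3 in Rps3_TAP. STE3, the receptor of MATalpha cells, had 108, 126 and 210 counts in Plus_Rps26 and 50 in Rps3_TAP.

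**Figure D1:**
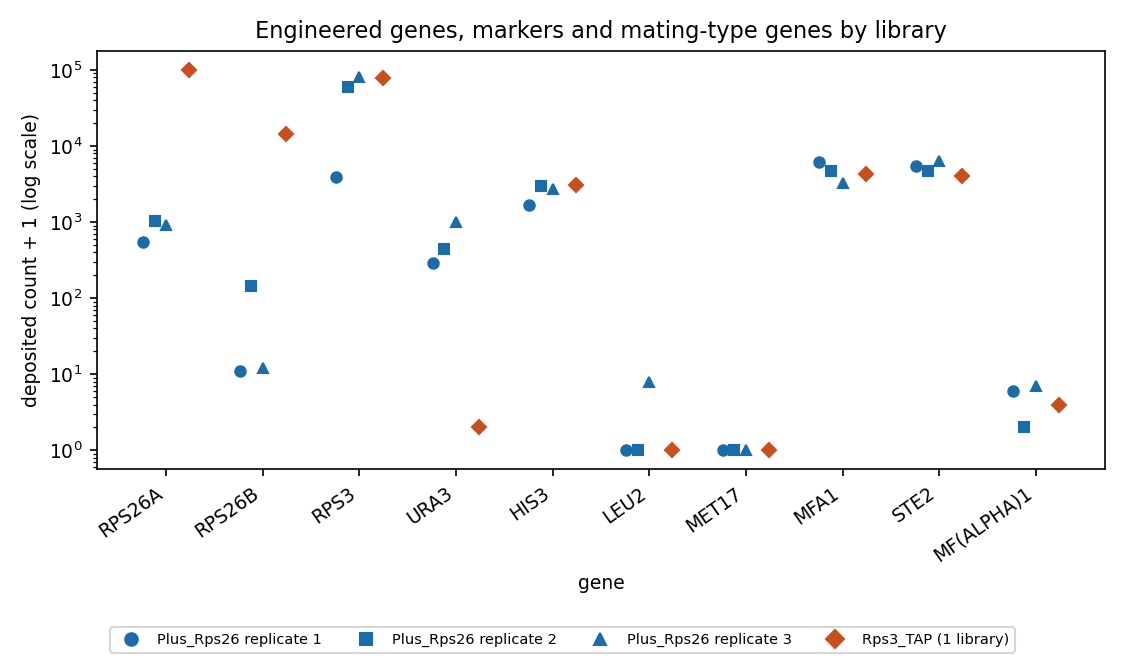
Deposited counts plus 1, on a log scale, of engineered genes, auxotrophic markers and mating-type genes, with 1 point per library (3 Plus_Rps26 libraries in blue, the 1 Rps3_TAP library in orange). RPS26A lies at 545 to 1042 counts in Plus_Rps26 and 100566 in Rps3_TAP, URA3 at 286 to 999 in Plus_Rps26 and 1 in Rps3_TAP, and MFA1 and STE2 lie close together in all 4 libraries.

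Of 5815 features tested across the whole table, 86 (1.48%) were called (edgeR's quasi-likelihood test over all features, adjusted p under 0.05): 12 (0.206%) were higher in Plus_Rps26 and 74 (1.27%) were lower. All 86 were nuclear protein-coding genes, and in each of them the 3 Plus_Rps26 libraries lay on 1 side of Rps3_TAP. The median span was 1411.5 bases for the genes called higher, 726 for those called lower and 1233 for all nuclear coding genes tested. Spans run from the start to the end of a gene with any introns, so these medians need not hold for coding lengths. With a trend of fold change on span length removed, 12 genes were called higher and 55 lower. Of these, 7 and 50 were among those called without this step.

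The number of calls depended on which libraries were in the fit. Without Plus_Rps26 replicate 1, the library that stood apart, 205 features were called higher and 381 lower, and these held all 12 and all 74. Without Plus_Rps26 replicate 3, only 2 were higher and 27 lower. Without Minus_Rps26 replicates 1, 2 and 3 in turn, 2, 4 and 2 were higher and 30, 44 and 34 lower. In the 4 libraries by themselves, 0 features were called higher and 4 lower (CAR2, MDH2, RPS26A and WSC4), with 826 features at an unadjusted p under 0.05 in edgeR, against 1207 in the fit of all 7. DESeq2 on the same counts called 169 higher and 290 lower. Among the 62 called genes followed with each of the 6 replicated libraries left out in turn, 21 were called every time: RPS26A, RPS26B, URA3, CAR2, MDH2, RIB4, ICS2, WSC4, YGP1, AHC2, SDP1, SAM2, URA1, COX5B, HXK2, LSC2, SOD2, ICY1, APE1, FMP48 and MPM1. The Rps3_TAP library itself cannot be left out.

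A count that uses no estimate of spread gave a more even split. In TMM-scaled CPM, 350 features (6.02%) lay more than 2-fold above Rps3_TAP in all 3 Plus_Rps26 libraries and 355 (6.10%) lay more than 2-fold below it. Merely on 1 side, 1777 features (30.6%) had all 3 libraries above and 1811 (31.1%) had all 3 below. These shares depend on the scaling. With libraries scaled by their total counts, the median log2 fold change of all features moved to 0.55, against 0.07 with TMM, 659 features lay more than 2-fold above and 140 below, and the test called 2 higher (RPL7B, URA3) and 4 lower (CAR2, MDH2, RPS26A, RPS26B).

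In the authors' deposited table of flowthrough over Rps3-TAP, 59 features (1.03%) were higher and 149 (2.60%) lower at an adjusted p of 0.05 among 5732 that have one. Of the 86 features called here, 83 (96.5%) were called there in the same direction, which is 39.9% of the 208 called in the authors' deposited table. That table gives log2 fold changes of -5.80 for RPS26A, -3.44 for CAR2 and 4.54 for URA3, and -1.92 for RPS26B. The fit here gave -6.89, -4.001, 9.08 and -7.99 for these genes in that order. For HSP12, called in neither, the values were 0.69 there and 5.31 here. A shared direction therefore does not mean a shared size.

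The 12 lowest called genes that average at least 10 CPM, other than RPS26A and RPS26B, held enzymes of nitrogen, carbon and riboflavin metabolism and cell surface and signalling proteins. CAR2, the ornithine transaminase of arginine breakdown (YLR438W, XII:1012501-1013775), had 25.7, 30.4 and 18.5 CPM in Plus_Rps26 and 399 CPM in Rps3_TAP (log2 fold change -4.001 ± 0.41, edgeR adjusted p = 0.00229). MDH2, the cytosolic malate dehydrogenase used in gluconeogenesis (YOL126C, XV:81787-82920), had 52.6, 49.2 and 46.1 CPM in Plus_Rps26 and 739 CPM in Rps3_TAP (-3.91 ± 0.33, adjusted p = 0.000426). At both genes the 3 Plus_Rps26 libraries lay close together and far under the Rps3_TAP library. RIB4, the lumazine synthase of riboflavin synthesis (YOL143C, XV:54595-55104), had 99.8, 161 and 60.9 CPM in Plus_Rps26 and 1397 CPM in Rps3_TAP (-3.71 ± 0.47, adjusted p = 0.00886). WSC4, a cell wall stress sensor (YHL028W, VIII:48763-50580), had 9.20, 8.30 and 7.73 CPM in Plus_Rps26 and 93.4 CPM in Rps3_TAP (-3.47 ± 0.52, adjusted p = 0.0144).

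Among the others, TDH1, the glyceraldehyde-3-phosphate dehydrogenase isozyme that is most abundant in stationary cells, had 71.1, 121 and 273 CPM in Plus_Rps26 and 1599 CPM in Rps3_TAP (-3.37 ± 0.69, edgeR adjusted p = 0.0417). The stress-induced cell wall protein YGP1 had 26.7, 13.7 and 13.5 CPM in Plus_Rps26 and 166 CPM in Rps3_TAP (-3.21). AHC2 of the ADA acetyltransferase complex had 47.2, 56.5 and 39.5 CPM in Plus_Rps26 and 400.2 CPM in Rps3_TAP (-3.07). COA3, a cytochrome oxidase assembly factor, had 14.4, 48.8 and 28.4 CPM in Plus_Rps26 and 238 CPM in Rps3_TAP (-2.97). None of these ranges reached the Rps3_TAP value, and TDH1 and COA3 spread more among the Plus_Rps26 libraries than YGP1 and AHC2 did. ICS2 (-3.62), PHM6 (-3.55), the protein phosphatase SDP1 (-2.996) and the GATA transcription factor GAT1 (-2.95) made up the 12. TDH1 lost its call with the span length trend removed (edgeR adjusted p = 0.0557). The call of TDH1 was lost without Plus_Rps26 replicate 2, Minus_Rps26 replicate 1 or Minus_Rps26 replicate 3 (adjusted p up to 0.0777), those of COA3 and GAT1 without Plus_Rps26 replicate 3 or Minus_Rps26 replicate 1 (up to 0.0691 and 0.0543), and that of PHM6 without Plus_Rps26 replicate 3 or Minus_Rps26 replicate 3 (up to 0.0691).

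**Figure D2:**
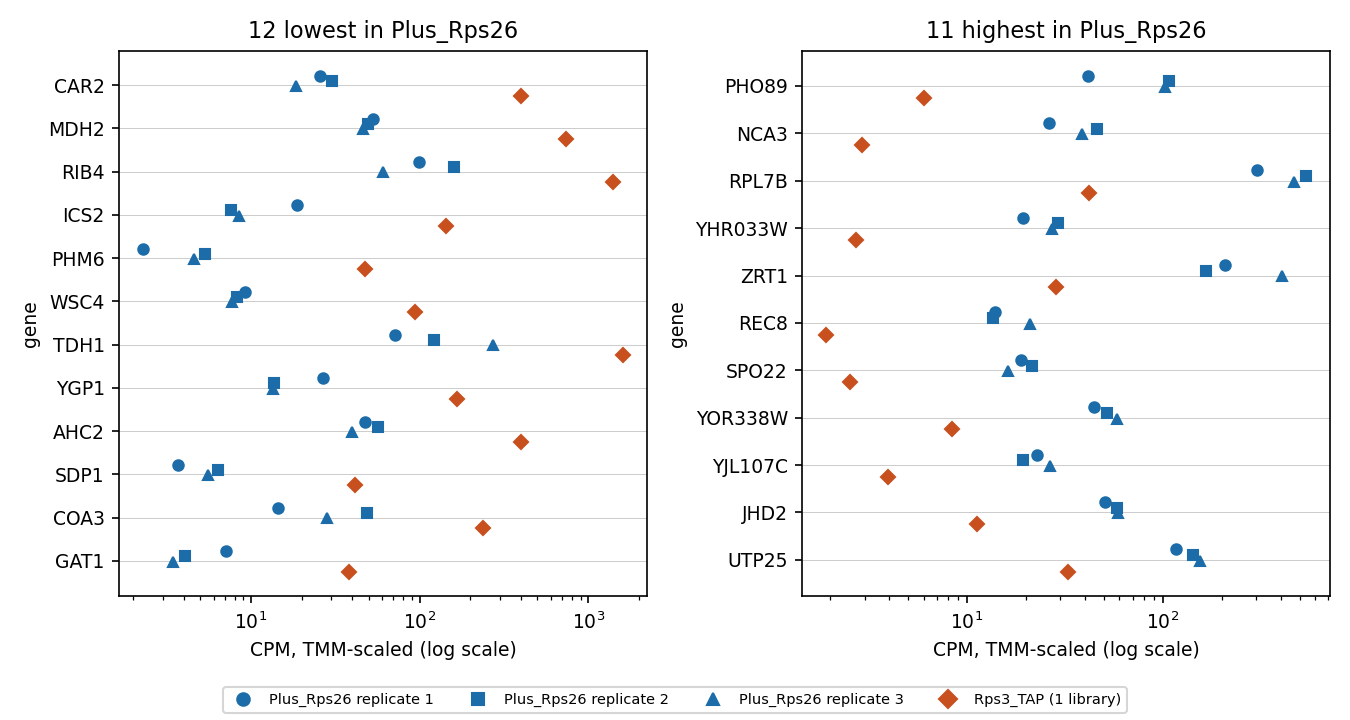
TMM-scaled CPM, on a log scale, of the 12 lowest and 11 highest called genes that average at least 10 CPM, without RPS26A, RPS26B and URA3, ordered by fold change, with 1 point per library (3 Plus_Rps26 libraries in blue, the 1 Rps3_TAP library in orange). For CAR2 the Plus_Rps26 points lie at 18.5 to 30.4 CPM and the Rps3_TAP point at 399, and for PHO89 the Plus_Rps26 points lie at 41.6 to 108 CPM and the Rps3_TAP point at 6.05.

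The 11 highest called genes, other than the marker URA3, held transporters of phosphate and zinc, a ribosomal protein and genes of meiosis. PHO89, a sodium-phosphate symporter of the plasma membrane (YBR296C, II:796798-798522), had 41.6, 108 and 103 CPM in Plus_Rps26 and 6.05 CPM in Rps3_TAP, 13.9-fold higher (log2 fold change 3.79 ± 0.72, edgeR adjusted p = 0.0331). ZRT1, the high-affinity zinc transporter (YGL255W, VII:20978-22108), had 208, 166 and 407 CPM in Plus_Rps26 and 28.4 CPM in Rps3_TAP (3.20 ± 0.65, adjusted p = 0.0417). RPL7B, which encodes a protein of the large subunit (YPL198W, XVI:173152-174702), had 302, 536 and 465 CPM in Plus_Rps26 and 41.8 CPM in Rps3_TAP (3.38 ± 0.56, adjusted p = 0.0206). All Plus_Rps26 libraries lay well above Rps3_TAP at these 3 genes.

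The near-identical RPL7A showed 951, 1711 and 1499 CPM in Plus_Rps26 and 1035 CPM in Rps3_TAP (0.42 ± 0.46, edgeR adjusted p = 0.646), so its groups overlapped. Reads of RPL7A and RPL7B can be misassigned between the copies, and the span of RPL7B also holds the small nucleolar RNA SNR59, so the RPL7B value is uncertain in its source. Its call was lost without Minus_Rps26 replicate 1 (adjusted p = 0.0539).

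The meiotic cohesin REC8 had 14.0, 13.6 and 20.9 CPM in Plus_Rps26 and 1.92 CPM in Rps3_TAP (3.07 ± 0.65, edgeR adjusted p = 0.047). SPO22, a protein of meiotic chromosome synapsis, had 18.9, 21.5 and 16.2 CPM in Plus_Rps26 and 2.52 CPM in Rps3_TAP (2.90 ± 0.58, adjusted p = 0.0409). Both transcripts were at low levels in Rps3_TAP, so their fold changes rest on few reads there. The histone demethylase JHD2 had 50.6, 58.0 and 59.3 CPM in Plus_Rps26 and 11.3 CPM in Rps3_TAP (2.31 ± 0.43, adjusted p = 0.0331), and UTP25, a nucleolar protein of the small subunit processome, had 117, 142 and 154 CPM in Plus_Rps26 and 32.7 CPM in Rps3_TAP (2.08 ± 0.43, adjusted p = 0.0433). NCA3 (3.66), YHR033W (3.21), YOR338W (2.62) and YJL107C (2.54), whose span overlaps PRM10, were the rest of the 11. NCA3, YHR033W and YJL107C had 29, 27 and 39 counts in Rps3_TAP, so their fold changes also rest on few reads there.

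The calls of these 11 genes depended on the libraries in the fit and on the processing. All 11 lost their call in at least 1 of the fits that left out a library: PHO89 and NCA3 without Plus_Rps26 replicate 3, Minus_Rps26 replicate 1 or Minus_Rps26 replicate 3, with adjusted p up to 0.0737 and 0.0613. ZRT1, JHD2, YHR033W and YJL107C were lost without Plus_Rps26 replicate 3 or any Minus_Rps26 library (up to 0.0922, 0.0646, 0.0693 and 0.0837). REC8, SPO22 and UTP25 were lost without any of the libraries but Plus_Rps26 replicate 1 (up to 0.085, 0.0777 and 0.0779), and YOR338W without Plus_Rps26 replicates 2 or 3 or Minus_Rps26 replicates 2 or 3 (up to 0.0777). With the span length trend removed PHO89, ZRT1, REC8, UTP25 and YOR338W lost their calls (adjusted p 0.0537 to 0.0604). With total-count scaling all 11 but RPL7B did (0.0737 to 0.143). In the Minus_Rps26 libraries, PHO89 stood at 69.4, 117 and 64.6 CPM, ZRT1 at 210.4, 169 and 295 CPM and RPL7B at 287, 307 and 194 CPM.

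The series is about the bases that precede the start codon, so the deposited upstream sequences of these extreme genes are shown. Each is the authors' column of 20 bases before the start codon, written 5' to 3' with the bases from -4 to -1 in capitals. Position -1 is read as the base at the end of the column, which puts A at -3 in most genes, as is usual in yeast. The 12 lowest genes, from the lowest, read
CAR2: agcacagaaccacaacACCA
MDH2: atcataaaagttatagTAAC
RIB4: ataacgcagtataacgCAGT
ICS2: gtttccctttccagcaAGAT
PHM6: tttttcaacctgacacCAAG
WSC4: aattacaaaaccaaaaACGC
TDH1: aaatttacacacaaaaCAAA
YGP1: aagtaatacagtaataGAAA
AHC2: accagtctatttaaacTGGA
SDP1: acttgtagccataatcTCGC
COA3: tatatagacgacaaagTAGT
GAT1: ctcccggccccggtatTAGC
and the 11 highest, from the highest, read
PHO89: taaacaaagattaagcAAAA
NCA3: tcgtctctctctaacaCATA
RPL7B: aaatctccatcaacgtCATA
YHR033W: aaggcatatcgaagggTGTA
ZRT1: caaatatcaaaaaaggAATT
REC8: aatattacaaatattcTGCA
SPO22: aaagtgatcaacaagtTTCA
YOR338W: gagaatttttttcgacTGCG
YJL107C: aataaccgataggctaTACA
JHD2: acaaaaaacgtatcacTATC
UTP25: tgcgaagtgaccaaatTGTA
Among the 12 lowest, 7 had A at -3, 3 had A at -4 and 0 had A at all 4 positions. Among the 11 highest, 6 had A at -3, 2 had A at -4 and 1, PHO89, had A at all 4.

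Over all called genes, A at -3 was about as frequent as in the genome. It stood before 58.3% of the 12 genes called higher (95% Wilson interval 32.0 to 80.7%, for counting error only), 63.5% of the 74 called lower (52.1 to 73.6%) and 61.0% of the 5594 tested coding genes with a deposited context. At -4, G was present in 0 of the 12 called higher (upper limit 24.2%) and 4.05% of those called lower (1.39 to 11.3%), with 14.9% in all tested coding genes, and T was present in 58.3% of those called higher (32.0 to 80.7%), 27.0% of those called lower and 21.3% of all. At -2, T was present in 58.3% of those called higher (32.0 to 80.7%), which are 7 of 12 genes, 12.2% of those called lower (6.53 to 21.5%) and 24.2% of all. In the larger sets of genes more than 2-fold away from Rps3_TAP in all 3 libraries the shares were closer to those of all genes. T stood at -2 in 21.6% of the 287 above and 22.9% of the 353 below, T at -4 in 28.6% and 22.7%, and G at -4 in 11.8% and 9.63%. The share in all genes lay outside the Wilson interval for T at -4 in those above (23.7 to 34.1%). It also lay outside that for G at -4 in those below (6.97 to 13.2%). For the other shares of these sets given here it lay inside. Farther upstream it lay inside for most bases but outside for some. Among these were T at -12 in those above (34.1%, interval 28.9 to 39.8%, against 26.7% of all). Others were A at -7 (45.3%, 40.2 to 50.5%, against 39.2%) and G at -8 (11.3%, 8.43 to 15.1%, against 16.2%) in those below. When all tested genes were grouped by their base at -4, -3, -2 or -1 instead, the 16 medians of the log2 fold change lay between -0.02 and 0.14, a small range beside the quartiles of the groups, which reached from -0.61 to 0.68.

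In nitrogen metabolism, 4 catabolic genes and regulators were lower in Plus_Rps26: CAR1, CAR2, DUR1,2 and GAT1. Yeast cells degrade arginine through arginase (CAR1) and ornithine transaminase (CAR2), degrade urea through DUR1,2, and use GATA factors such as GAT1 to switch on many such genes when preferred nitrogen sources are short. Of 21 tested genes of arginine and allantoin degradation, a list made after the values were seen, 0 were called higher and 4 lower. Beside this and each list below, 0.206% of all features were called higher and 1.27% lower. The list's median log2 fold change was -0.36 against 0.07 for all features. With total-count scaling these medians were 0.11 and 0.55. CAR1 had 48.4, 62.7 and 70.6 CPM in Plus_Rps26 and 373 CPM in Rps3_TAP (-2.62 ± 0.46, edgeR adjusted p = 0.0249). DUR1,2 had 12.6, 28.8 and 31.9 CPM in Plus_Rps26 and 175 CPM in Rps3_TAP (-2.84 ± 0.51, adjusted p = 0.0302), and GAT1 had 7.16, 4.04 and 3.45 CPM in Plus_Rps26 and 37.9 CPM in Rps3_TAP (-2.95 ± 0.50, adjusted p = 0.021). The allantoin genes did not follow them: the permease DAL5 had 18.0, 20.2 and 43.5 CPM in Plus_Rps26 and 6.05 CPM in Rps3_TAP (2.17 ± 0.65, adjusted p = 0.104), which missed the threshold, as did DAL7 (1.47, adjusted p = 0.129) and the proline oxidase PUT1 (-1.03, adjusted p = 0.287). The call of CAR1 was lost without Plus_Rps26 replicate 3 (adjusted p = 0.0543), that of DUR1,2 without Minus_Rps26 replicate 1 (0.0737), and that of GAT1 without either (up to 0.0543). In the Minus_Rps26 libraries CAR2 stood at 22.4, 11.5 and 19.6 CPM.

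Genes of the first steps of pyrimidine synthesis were lower in Plus_Rps26. This pathway builds UMP from carbamoyl phosphate and aspartate by the products of URA2, URA4, URA1, URA5 or URA10 and URA3. URA2, the first enzyme, had 452, 721 and 482 CPM in Plus_Rps26 and 3865 CPM in Rps3_TAP (-2.81 ± 0.45, edgeR adjusted p = 0.0188). URA4, dihydroorotase, had 139, 177 and 138 CPM in Plus_Rps26 and 663 CPM in Rps3_TAP (-2.13 ± 0.35, adjusted p = 0.0203). URA1, dihydroorotate dehydrogenase, had 155, 237 and 193 CPM in Plus_Rps26 and 1385 CPM in Rps3_TAP (-2.83 ± 0.38, adjusted p = 0.00886). At each of the 3 genes all Plus_Rps26 libraries lay below Rps3_TAP with no overlap.

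URA5 and the later kinase URA6 were not called. URA5, orotate phosphoribosyltransferase, had 281, 410.4 and 452 CPM in Plus_Rps26 and 403 CPM in Rps3_TAP (-0.08 ± 0.40, edgeR adjusted p = 0.93), a sign that turned with total-count scaling (0.32), and the UMP kinase URA6 had 101, 330.0 and 327 CPM in Plus_Rps26 and 389 CPM in Rps3_TAP (-0.62 ± 0.56, adjusted p = 0.569). The CTP synthase URA8 stood at -1.45 ± 0.35 (adjusted p = 0.0686). Another list made after the values were seen, without URA3, held 15 tested genes of pyrimidine synthesis, salvage and uptake. In it 0 were called higher and 3 lower, beside 0.206% and 1.27% of all features. Its median was -0.32 (-0.05 with total-count scaling). URA3 itself separates the strains by its count, as given above, and its part in the other URA genes was not tested. The calls of URA2 and URA4 were lost without Plus_Rps26 replicate 3 (adjusted p = 0.0543 for both), and that of URA1 was kept in each such fit. The Minus_Rps26 libraries, of the same strain as Plus_Rps26, had 643, 757 and 1206 CPM of URA2, 108, 117 and 87.6 CPM of URA4 and 121, 162 and 183 CPM of URA1.

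Glycolytic transcripts made up 6.04%, 5.08% and 6.40% of the counts in the Plus_Rps26 libraries and 12.2% in Rps3_TAP. Glycolysis splits glucose to pyruvate, and in glucose-grown yeast its mRNAs are among the most abundant. Of 21 tested genes of glycolysis and fermentation, 0 were called higher and 2 lower, TDH1 and the minor pyruvate kinase PYK2. The shares over all features were 0.206% and 1.27%. In the list 19 had a negative log2 fold change, and the median was -1.33. The median stayed below that of all features with total-count scaling (-0.98 against 0.55). PYK2 had 23.4, 30.8 and 30.8 CPM in Plus_Rps26 and 90.5 CPM in Rps3_TAP (-1.68 ± 0.36, edgeR adjusted p = 0.0494). The kinases that admit glucose to the pathway were lower too: GLK1, glucokinase, had 143, 317 and 223 CPM in Plus_Rps26 and 1626 CPM in Rps3_TAP (-2.84 ± 0.47, adjusted p = 0.0206), and HXK2, the main hexokinase in glucose, had 494, 473 and 639 CPM in Plus_Rps26 and 2981 CPM in Rps3_TAP (-2.48 ± 0.40, adjusted p = 0.0188). HXK1 did not pass (-1.82 ± 0.66, adjusted p = 0.162). The span of GLK1 overlaps that of the dubious frame YCL042W, which also was called lower and cannot be separated from it.

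The abundant enzymes of the pathway lay below Rps3_TAP in every Plus_Rps26 library without being called. TDH3, the main glyceraldehyde-3-phosphate dehydrogenase, had 3283, 4202 and 7272 CPM in Plus_Rps26 and 18889.7 CPM in Rps3_TAP (-1.94 ± 0.50, edgeR adjusted p = 0.0703). ADH1, the alcohol dehydrogenase of fermentation, had 2298, 3323 and 5595 CPM in Plus_Rps26 and 16239 CPM in Rps3_TAP (-2.12 ± 0.51, adjusted p = 0.0684), and PDC1, pyruvate decarboxylase, had 11411, 12248 and 16068 CPM in Plus_Rps26 and 31913 CPM in Rps3_TAP (-1.27 ± 0.46, adjusted p = 0.16). TDH2 (-2.59), ENO1 (-2.27), ENO2 (-1.74), GPM1 (-1.73), FBA1 (-1.37) and PGK1 (-1.26) were also not called. Without Plus_Rps26 replicate 1, TDH2, TDH3, ADH1, ENO1 and ENO2 passed, with adjusted p of 0.01, 0.0282, 0.0234, 0.0309 and 0.0249. The list then held 7 called lower, and 10 by DESeq2. In the other direction, the calls of PYK2, GLK1 and TDH1 were each lost in some fits without a library: PYK2 without any but Plus_Rps26 replicate 1 (adjusted p up to 0.085) and GLK1 without Plus_Rps26 replicate 3 or Minus_Rps26 replicate 1 (up to 0.0543).

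**Figure D3:**
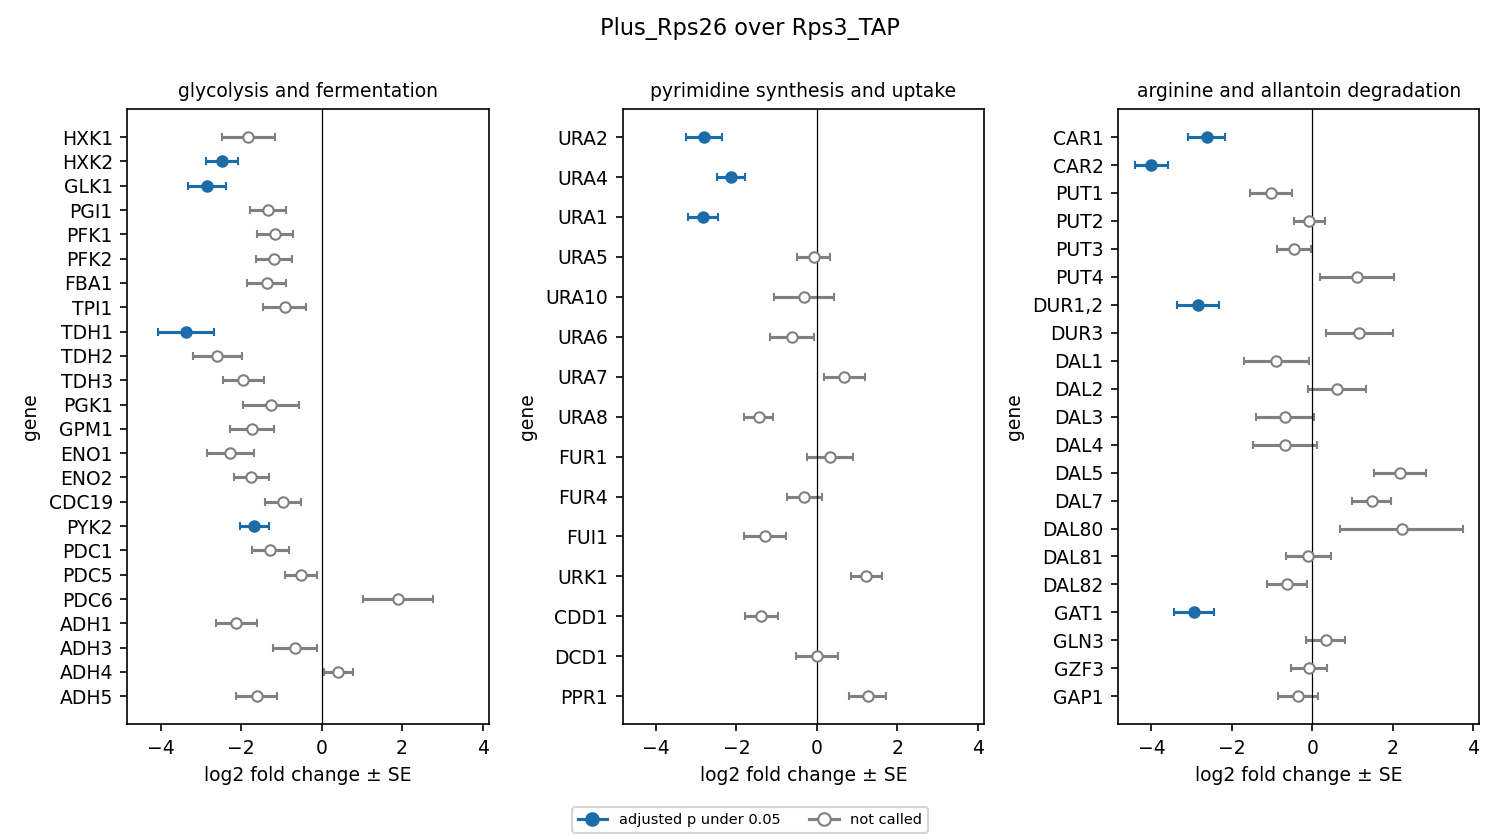
Log2 fold changes of Plus_Rps26 over Rps3_TAP with their SE for glycolysis and fermentation (HXK1, HXK2 and GLK1 from the hexose list at its top), pyrimidine synthesis and uptake, and arginine and allantoin degradation, with called genes filled. Most glycolytic genes lie left of 0, and in the other panels the called genes CAR2 (-4.001), URA1 (-2.83) and URA2 (-2.81) lie left of uncalled genes on both sides of 0.

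The galactose genes, which galactose induces and glucose represses, had 10 tested members, 0 called in either direction and a median of -0.17 (0.28 with total-count scaling). GAL1, galactokinase, had 4.16, 3.72 and 6.37 CPM in Plus_Rps26 and 1.51 CPM in Rps3_TAP (1.65 ± 0.69, edgeR adjusted p = 0.211), low in both groups. GAL2 (1.05) and GAL3 (1.02) were above 0, GAL7 (-0.21), GAL10 (-0.14), GAL4 (-0.18), GAL80 (-0.16) and GCY1 (-0.27) were within 1 SE of 0 and turned positive with total-count scaling, and PGM1 (-1.11) and PGM2 (-2.005, adjusted p = 0.0611) were below 0. GAL1, GAL10 and GAL4 overlap annotated antisense RNAs, and the strand setting of the counting is not given in the sources used here. Of 22 hexose transporters, sensors and kinases, 0 were higher and 2 lower (GLK1, HXK2), with a median of 0.63. The low-affinity transporter HXT1 had 180.3, 287 and 642 CPM in Plus_Rps26 and 138 CPM in Rps3_TAP (1.42 ± 0.67, adjusted p = 0.261) and HXT3 had 387, 469 and 1134 CPM in Plus_Rps26 and 227 CPM in Rps3_TAP (1.55 ± 0.65, adjusted p = 0.214).

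Of 25 tested genes of gluconeogenesis, the glyoxylate cycle and other glucose-repressed pathways, 0 were called higher and 1 lower, MDH2, and the median was 0.34. The glucose-repressed alcohol dehydrogenase ADH2 had 8.31, 31.4 and 44.0 CPM in Plus_Rps26 and 2.62 CPM in Rps3_TAP (3.41 ± 0.94, edgeR adjusted p = 0.0819), and SIP4, an activator of gluconeogenic genes, had 6.63, 4.79 and 6.27 CPM in Plus_Rps26 and 0.807 CPM in Rps3_TAP (2.86 ± 0.78, adjusted p = 0.0813). Both lay above Rps3_TAP in all 3 libraries where MDH2 lay below. Without Plus_Rps26 replicate 1 both passed, with edgeR adjusted p of 0.0035 and 0.0417. ADH2 and SIP4 were low in Rps3_TAP, so their fold changes rest on few reads there.

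The mitochondrial genome gave 0.0831%, 0.266% and 0.237% of counts in Plus_Rps26 and 0.0288% in Rps3_TAP. Its 8 tested mRNAs, which mitochondrial ribosomes translate inside the organelle, had 0 called genes and a median of 2.74, with medians of 0.83, 3.03 and 3.46 in Plus_Rps26 replicates 1, 2 and 3. COX1 had 326, 1554 and 1329.5 CPM in Plus_Rps26 and 68.0 CPM in Rps3_TAP (3.98 ± 1.38, edgeR adjusted p = 0.146). All 3 libraries lay above Rps3_TAP and replicate 1 was nearest to it; without that replicate COX1 passed (4.42, adjusted p = 0.0281). OLI1, an ATP synthase subunit, had 86.7, 393 and 438 CPM in Plus_Rps26 and 241 CPM in Rps3_TAP (0.34 ± 1.03, adjusted p = 0.883), so its groups overlapped. The span of COX1 holds intron-encoded frames, so its reads may be shared with them.

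Lists of nuclear genes for mitochondrial proteins held few calls, all of them lower, in a comparison where 0.206% of all features were called higher and 1.27% lower. Of 75 mitochondrial ribosomal protein genes, 0 were called higher and 2 lower, MRPL39 and MRPL19, with a median of -0.81 (-0.34 with total-count scaling). MRPL39 had 22.4, 56.6 and 47.1 CPM in Plus_Rps26 and 296 CPM in Rps3_TAP (-2.82 ± 0.52, edgeR adjusted p = 0.0331), and MRPL19, whose span overlaps YNL184C, had 33.3, 51.3 and 28.5 CPM in Plus_Rps26 and 167 CPM in Rps3_TAP (-2.15 ± 0.43, adjusted p = 0.0407). Of 37 nuclear genes of the respiratory chain, 0 were higher and 1 lower: COX5B, the cytochrome oxidase subunit that prevails at low oxygen, had 29.5, 55.0 and 48.2 CPM in Plus_Rps26 and 292 CPM in Rps3_TAP (-2.72 ± 0.40, adjusted p = 0.0139). Of 20 genes of the citric acid cycle, 0 were higher and 1 lower, LSC2, the beta subunit of succinyl-CoA ligase, with 19.99, 25.1 and 19.5 CPM in Plus_Rps26 and 107 CPM in Rps3_TAP (-2.31 ± 0.34, adjusted p = 0.0143). The assembly factor COX14 (-2.56), the lipid transfer protein MDM35 (-2.41), and MPM1 (-2.46) and FMP48 (-2.79), which were named for a mitochondrial location, were called lower as well and were picked after their values were seen. The medians of the respiratory and citric acid cycle lists were -0.49 and -0.52, but abundant members lay above 0 without being called: the ATP synthase subunits ATP2 (0.40, adjusted p = 0.626) and ATP5 (0.53, adjusted p = 0.632) and the aconitase ACO1 (0.71, adjusted p = 0.549). The calls of MRPL39, COX14 and MDM35 were lost without Plus_Rps26 replicate 3 or Minus_Rps26 replicate 1 (adjusted p up to 0.0624, 0.0613 and 0.0543). That of MRPL19 was lost without these or Minus_Rps26 replicate 2 (up to 0.0811), and with the span length trend removed (0.0557).

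Among 30 heat shock and general chaperone genes, 0 were called higher and 3 lower: SSA2, SSA1 and HSP10. Across all features 0.206% were called higher and 1.27% lower. The median of these 30 genes was -0.998 (-0.50 with total-count scaling). The constitutive Hsp70 SSA2 had 491, 603 and 400.1 CPM in Plus_Rps26 and 2837 CPM in Rps3_TAP (-2.51 ± 0.40, edgeR adjusted p = 0.0188), and its near-identical copy SSA1 had 195, 218 and 381 CPM in Plus_Rps26 and 1294 CPM in Rps3_TAP (-2.29 ± 0.48, adjusted p = 0.0446). Reads may be split between these copies. HSP10, the co-chaperonin of mitochondria, had 217, 529.7 and 458 CPM in Plus_Rps26 and 2139 CPM in Rps3_TAP (-2.41 ± 0.48, adjusted p = 0.0383), and its partner HSP60 just missed (-2.21 ± 0.48, adjusted p = 0.0516), as did HSP82 (-2.13, adjusted p = 0.0684). The small heat shock gene HSP12 went the other way in a scattered manner, with 73.2, 2391 and 1992 CPM in Plus_Rps26 and 37.5 CPM in Rps3_TAP (5.31 ± 1.89, adjusted p = 0.153), replicate 1 being far below the other libraries of its group. Without that replicate it passed (adjusted p = 0.0074). Of 38 genes of the general stress response 0 were higher and 3 lower, PNC1 (-2.09), DDR48 (-2.08) and SOL4 (-1.98), with a median of -0.73. The call of SSA2 was lost without Plus_Rps26 replicate 3 (adjusted p = 0.0543). HSP10 and SSA1 lost theirs without any Minus_Rps26 library, and without Plus_Rps26 replicate 3 (HSP10) or 2 (SSA1), with adjusted p up to 0.0774 and 0.0936. PNC1 and SOL4 lost theirs without any library but Plus_Rps26 replicate 1 (up to 0.0854 and 0.0787), and DDR48 without Plus_Rps26 replicate 2 or Minus_Rps26 replicates 1 or 3 (up to 0.0714). HSP10, PNC1 and SOL4 also lost their calls with the span length trend removed (edgeR adjusted p of 0.0554, 0.0604 and 0.0519).

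Redox genes gave 0 called higher and 2 lower of 26, beside 0.206% and 1.27% of all features. Their median was -1.09 (-0.57 with total-count scaling). TRX1, a cytosolic thioredoxin, had 265, 532 and 280.1 CPM in Plus_Rps26 and 2034 CPM in Rps3_TAP (-2.50 ± 0.47, edgeR adjusted p = 0.0331). SOD2, the manganese superoxide dismutase of mitochondria, had 88.5, 97.8 and 70.0 CPM in Plus_Rps26 and 421 CPM in Rps3_TAP (-2.30 ± 0.35, adjusted p = 0.0157). The paralogous or related TRX2 (-1.67, adjusted p = 0.0692) and SOD1 (-1.71, adjusted p = 0.0761) missed the threshold. The call of TRX1 was lost without Plus_Rps26 replicate 3 or Minus_Rps26 replicates 1 or 3 (up to 0.0737), and with the span length trend removed (0.0601).

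The translation machinery gave 1 call among its own mRNAs. Cytosolic ribosomal protein genes took 28.6%, 34.6% and 29.3% of counts in Plus_Rps26 and 30.2% in Rps3_TAP. Of 54 small-subunit genes, with RPS3, RPS26A and RPS26B left out, 0 were called either way, the median was -0.38 and 47 were negative, but with total-count scaling the median was -0.00. Of 81 large-subunit genes 1 was called higher, RPL7B, and 0 lower, with a median of -0.33 (0.09 with total-count scaling). Replicate 1 stood lowest in both lists, at medians of -0.91 and -0.96, against -0.13 and -0.08 in replicate 2. RPL3 had 10255, 18442 and 28279 CPM in Plus_Rps26 and 9006 CPM in Rps3_TAP (1.08 ± 0.63, edgeR adjusted p = 0.367), and RPS31, a ubiquitin fusion, had 2833, 9600.5 and 6325 CPM in Plus_Rps26 and 17033 CPM in Rps3_TAP (-1.45 ± 0.59, adjusted p = 0.201).

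Assembly factors build the subunits and then leave them, and both lists of them had 0 calls in either direction, while UTP25, described above and in neither list, was called higher. Of 19 late small-subunit factors 17 were positive, with a median of 0.60, and of 60 factors of the large subunit and nucleolus 54 were positive, with a median of 0.65, beside 0.07 for all features (1.16, 1.21 and 0.55 with total-count scaling). TSR2, the Rps26 chaperone, had 74.8, 42.4 and 51.9 CPM in Plus_Rps26 and 37.2 CPM in Rps3_TAP (0.60 ± 0.43, edgeR adjusted p = 0.467). RIO1, a kinase of late small-subunit maturation, had 94.4, 62.7 and 72.2 CPM in Plus_Rps26 and 24.8 CPM in Rps3_TAP (1.62 ± 0.42, adjusted p = 0.0725), and TSR3, an enzyme that modifies 18S rRNA, stood at 1.499 ± 0.45 (adjusted p = 0.107). All 3 Plus_Rps26 libraries lay above Rps3_TAP at each of these genes. RIO1 passed without Plus_Rps26 replicate 1 (adjusted p = 0.0288). These 3 were picked after their values were seen. The most abundant late small-subunit factors, EMG1 (0.0048, adjusted p = 0.998) and PRP43 (-0.17, adjusted p = 0.876), overlapped between the groups and had no stable sign, and those of the other list were NSR1 (0.77, adjusted p = 0.437) and SNU13 (-0.86, adjusted p = 0.347). The 48 translation factor genes had 0 calls and a median of -0.03 (0.48 with total-count scaling).

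**Figure D4:**
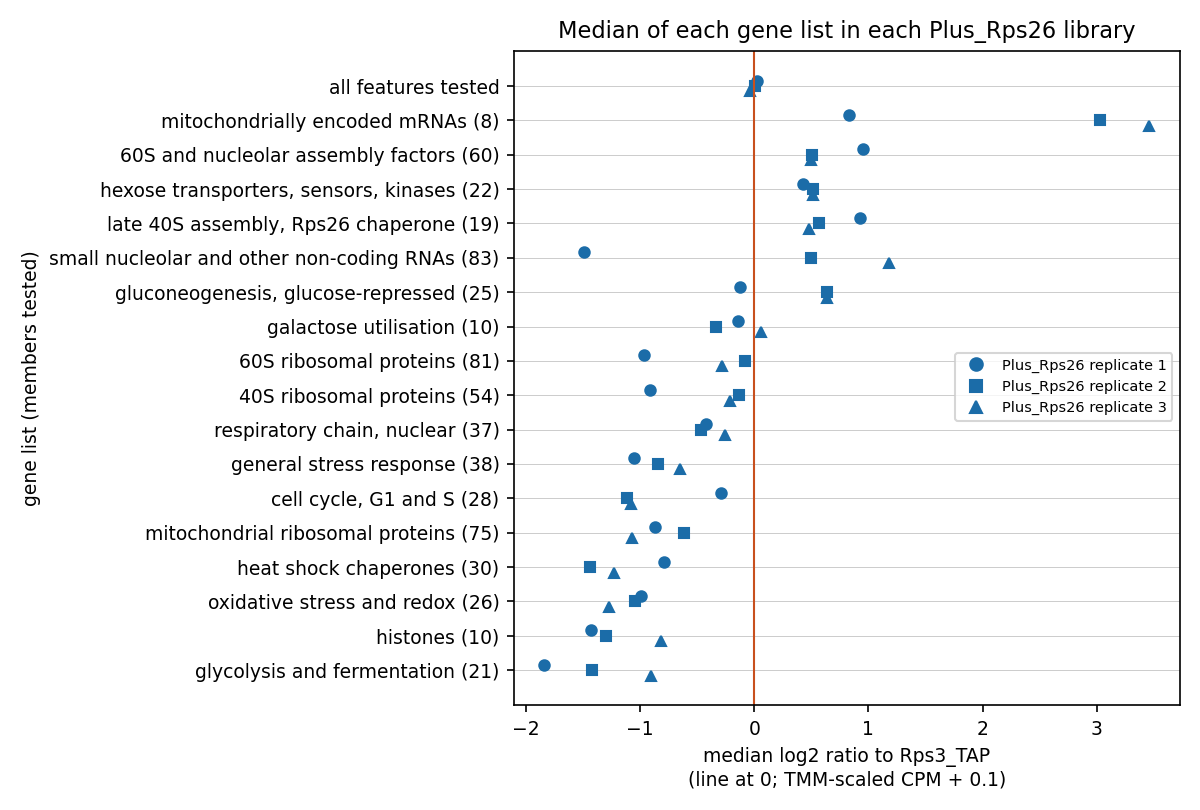
Median log2 ratio to the Rps3_TAP library of the members of 17 gene lists, and of all features tested, in each Plus_Rps26 library (TMM-scaled CPM plus 0.1). Glycolysis and fermentation lies at -1.84, -1.42 and -0.91 in replicates 1, 2 and 3, mitochondrially encoded mRNAs at 0.83, 3.03 and 3.46, and noncoding RNAs run from -1.50 to 1.18.

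Among nutrient lists, calls were single genes, in a comparison where 0.206% of all features were called higher and 1.27% lower. Of 9 tested zinc-responsive genes 1 was called higher, ZRT1, and 0 lower, all 9 were positive, and the median was 0.50. Of 22 phosphate starvation genes 1 was higher, PHO89, and 1 lower, PHM6, with a median of -0.57. The secreted acid phosphatase PHO5 had 4.51, 20.1 and 10.3 CPM in Plus_Rps26 and 82.2 CPM in Rps3_TAP (-2.82 ± 0.64, edgeR adjusted p = 0.0595), and the high-affinity transporter PHO84 had 191, 432 and 336 CPM in Plus_Rps26 and 841 CPM in Rps3_TAP (-1.40 ± 0.46, adjusted p = 0.133), so members of the phosphate list lay on both sides. Of 31 sulfur and methionine genes 0 were higher and 1 lower: SAM2, an S-adenosylmethionine synthetase, had 31.7, 40.8 and 52.5 CPM in Plus_Rps26 and 302 CPM in Rps3_TAP (-2.86 ± 0.37, adjusted p = 0.00886). It has a closely related copy, SAM1, with which reads may be shared.

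Of 28 genes of G1, S and mitosis 0 were called higher and 2 lower, beside 0.206% and 1.27% of all features. Their median was -0.73 (-0.17 with total-count scaling). NRM1, a corepressor of G1 transcription, had 12.2, 9.89 and 6.06 CPM in Plus_Rps26 and 68.0 CPM in Rps3_TAP (-2.85 ± 0.50, edgeR adjusted p = 0.0249), and CDC6, which loads the replicative helicase, had 36.5, 29.4 and 44.5 CPM in Plus_Rps26 and 131 CPM in Rps3_TAP (-1.84 ± 0.38, adjusted p = 0.0433). The 10 histone genes had 0 calls, were negative without exception and had a median of -1.23 (-0.80 with total-count scaling). The most abundant of them, HTA1, histone H2A, had 718, 1463 and 1493 CPM in Plus_Rps26 and 1964 CPM in Rps3_TAP (-0.68 ± 0.51, adjusted p = 0.481), and HHT1, histone H3, had 539, 1225 and 1113 CPM in Plus_Rps26 and 1438 CPM in Rps3_TAP (-0.58 ± 0.53, adjusted p = 0.574), the value nearest to 0 in the list. The lowest value was that of HHT2, also histone H3 (-1.48 ± 0.43, adjusted p = 0.1). The call of NRM1 was lost without Plus_Rps26 replicate 3 (adjusted p = 0.0543), and that of CDC6 without any library but Plus_Rps26 replicate 1 (up to 0.0827).

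Noncoding RNA took 7.04%, 17.4% and 26.7% of counts in Plus_Rps26 and 13.4% in Rps3_TAP. The 83 tested noncoding RNAs, most of them small nucleolar RNAs, had 0 calls and medians of -1.50, 0.50 and 1.18 in replicates 1, 2 and 3, on both sides of Rps3_TAP. SCR1, the RNA of the signal recognition particle, had 27524, 62532 and 72330.2 CPM in Plus_Rps26 and 44444 CPM in Rps3_TAP, and LSR1, the U2 spliceosomal RNA, had 7123, 51409 and 126469 CPM in Plus_Rps26 and 26007 CPM in Rps3_TAP. The groups overlapped at both RNAs. Since the share of noncoding RNA differed this much among libraries of 1 group, the test was also run on nuclear coding genes alone, which called 22 higher and 122 lower, including all 12 and all 74.

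**Figure D5:**
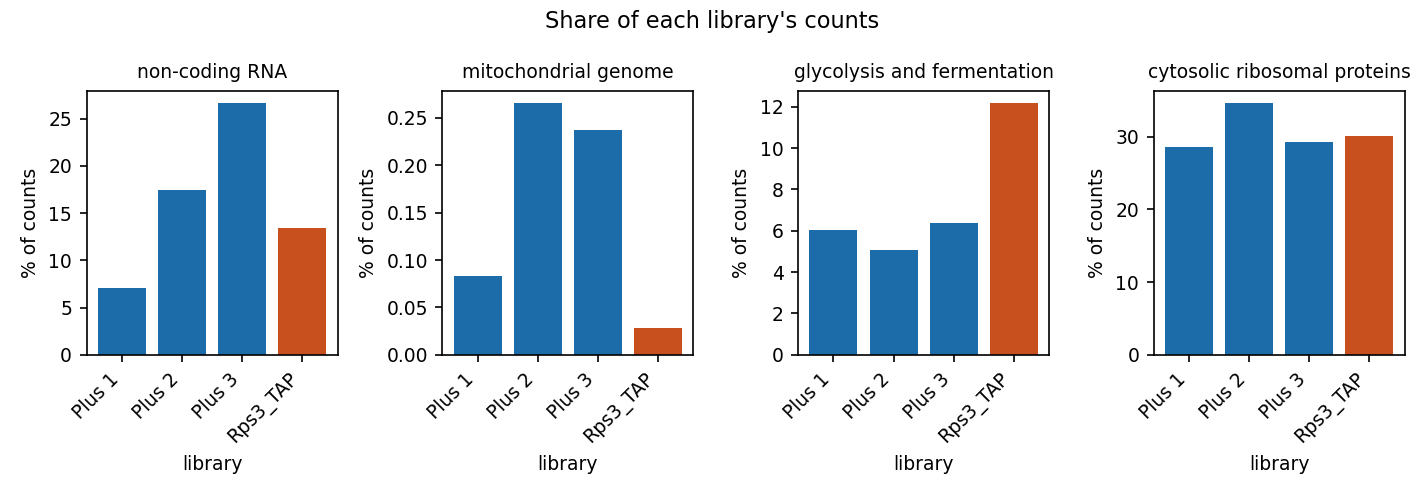
Percent of each library's counts that fall in noncoding RNA, the mitochondrial genome, the glycolysis and fermentation list and cytosolic ribosomal proteins (bars from 0, 1 bar per library, 3 Plus_Rps26 libraries in blue and the 1 Rps3_TAP library in orange). The glycolysis share is 5.08 to 6.40% in Plus_Rps26 and 12.2% in Rps3_TAP, and the noncoding share of 13.4% in Rps3_TAP lies inside the Plus_Rps26 range of 7.04 to 26.7%.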

How the data were processed

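RNA bound to ribosomes was sequenced with a stranded total RNA kit after depletion of ribosomal RNA, per the labels' protocols. The authors deposited raw counts per feature for each library; TopHat2 2.0.9, DESeq and DESeq2 and the genome build sacCer3 are named per the submitters' processing notes, and the program that counted the reads, and whether it used strand, is not given in the sources used here. The authors also deposited a table of log2 fold changes and adjusted p-values for the flowthrough libraries against Rps3-TAP, and the sequence before each start codon. Reads that fell in no feature were 4.59%, 6.63% and 5.14% of reads counted in Plus_Rps26 and 3.37% in Rps3_TAP, and stayed out of all totals. Alignments recorded as not unique numbered 11762367, 14508947 and 0 in Plus_Rps26 and 14150109 in Rps3_TAP, and 0 in Minus_Rps26 replicate 3. Replicate 3 of both groups thus differs from the other libraries in this record. Its bearing on near-identical gene copies, noncoding RNA and the calls was not tested. Gene names and positions follow the files and RefSeq's R64 table, which matched 6055 features by symbol or locus tag and 47 by synonym; 239 did not match. Lengths are the spans from the start to the end of each gene and include any introns. Of nuclear coding spans 96.3% are multiples of 3, and others, such as COX5B at 544 bases, are not.

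Counts were fitted in edgeR 4.0.16 (R 4.3.3, limma 3.58.1) with TMM scaling, filterByExpr, glmQLFit and glmQLFTest over all 7 libraries with the 3 groups as the only terms, and p-values were adjusted by Benjamini and Hochberg over 5815 features. A gene was called at an adjusted p under 0.05. SE was obtained as log2 fold change / sqrt(F). Ratios of single libraries used CPM + 0.1. DESeq2 1.42.0, other scalings and filters, a stricter threshold, a length correction and leaving out each library were alternatives; other steps ran in Python 3.11.15. The fit was also run on simulated data. All simulated libraries had the spread that the fit itself had estimated, so this cannot show how the lone Rps3_TAP library varies.

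The members and lists were chosen with earlier results of these data known. Named genes were the engineered genes and markers, up to 12 highest and 12 lowest called coding genes that average at least 10 CPM, up to 3 called members in each direction of each list or else its 2 most abundant, and all galactose genes. Abundant members of some lists with few or no calls are not printed. Other genes, and the pyrimidine and arginine lists, were chosen after values were seen. Lists have no test and are described by counts and medians.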

Additional observations from a re-analysis of the deposited data

How the results depend on the processing

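The count of called features (12 higher and 74 lower) was 2 and 4 with total-count scaling, 22 and 122 on nuclear coding genes alone, 169 and 290 with DESeq2, and 0 and 4 in the 4 libraries by themselves. It was 0 and 11 at an adjusted p of 0.01 in edgeR, where 1207 features had an unadjusted p under 0.05 and DESeq2 at 0.05 called 169 and 290. Leaving out 1 library at a time gave 2 to 205 higher and 27 to 381 lower, the highest counts without Plus_Rps26 replicate 1 and the lowest of both without Plus_Rps26 replicate 3. RLE scaling (12 and 79), no filter on low counts (13 and 86) and a required fold of 2 (12 and 74) changed little. The features more than 2-fold above (350) or below (355) in every library numbered 659 and 140 with total-count scaling and 120 and 50 at a fold of 4. With 1 Plus_Rps26 library left out they numbered 424 to 593 and 436 to 535. Fewer libraries then had to pass, which makes the rule easier to meet. The share of genes with A at -3 was 100% of the 2 called higher and 50% of the 4 called lower with total-count scaling. The log2 fold change turned positive with total-count scaling for GAL10 (0.19), GAL4 (0.35), GAL7 (0.22), GAL80 (0.36), GCY1 (0.16), HIS3 (0.039), PRP43 (0.42) and URA5 (0.32), and for URA5 with the length trend removed (0.10). That of EMG1 turned to -0.011 with RLE scaling and with DESeq2. Leaving out 1 library at a time gave -0.61 to 0.24 for GAL10, -0.30 to 0.012 for GAL4, -0.31 to 0.041 for GAL80, -0.22 to 0.11 for URA5, -0.17 to 0.22 for EMG1, -0.011 to 0.79 for OLI1 and -0.48 to 0.053 for PRP43. The cause was not tested. No paired analysis was possible because Rps3_TAP is 1 library with no replicate number. Every comparison rests on that 1 library, and its own error could not be measured.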

Other observations

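Lists not described above had few or no calls. The 26 Hog1 signalling, 17 osmotic, 19 Rim101, 60 amino acid synthesis, 27 iron, 21 mating, 33 proteasome, 28 endoplasmic reticulum, 30 nuclear pore, 21 purine and 24 ergosterol genes tested had 0 called higher and 0 called lower, with 1207 of all 5815 features at an unadjusted p under 0.05 in edgeR and 169 higher and 290 lower by DESeq2 over the whole table. Their medians were 0.27, -0.28, 0.54, -0.06, 0.49, 0.37, -0.36, 0.13, 0.24, 0.10 and 0.05 in that order. With total-count scaling, which moved the median of all features to 0.55, the medians of the osmotic (0.14), amino acid (0.36) and proteasome (0.14) lists were positive. Among 28 cell wall mannoprotein genes 0 were higher and 1 lower, CWP2. It had 1416, 1508 and 1272 CPM in Plus_Rps26 and 4937 CPM in Rps3_TAP (log2 fold change -1.82 ± 0.39, edgeR adjusted p = 0.0491). Its call was lost without any library but Plus_Rps26 replicate 1 (adjusted p up to 0.101), and with the span length trend removed (0.119).

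Other genes called lower, picked after their values were seen, were of varied function. ICY1 had 75.6, 70.1 and 80.0 CPM in Plus_Rps26 and 545 CPM in Rps3_TAP (-2.86 ± 0.38, edgeR adjusted p = 0.00886). The vacuolar aminopeptidase APE1 had 35.6, 39.7 and 33.5 CPM in Plus_Rps26 and 178 CPM in Rps3_TAP (-2.29 ± 0.31, adjusted p = 0.00886). Both were called with each library left out. The ubiquitin-like modifier SMT3 had 191, 175 and 161 CPM in Plus_Rps26 and 827 CPM in Rps3_TAP (-2.24 ± 0.37, adjusted p = 0.0206), a call lost without Plus_Rps26 replicate 3 (adjusted p = 0.0543). The prolyl isomerase CPR1 had 1065, 988 and 1144 CPM in Plus_Rps26 and 4572 CPM in Rps3_TAP (-2.10 ± 0.39, adjusted p = 0.0331). The coat protein SEC31 had 146, 115 and 91.9 CPM in Plus_Rps26 and 503 CPM in Rps3_TAP (-2.09 ± 0.40, adjusted p = 0.0331), and the fatty acid synthase FAS1 had 433, 671 and 735 CPM in Plus_Rps26 and 2562 CPM in Rps3_TAP (-2.06 ± 0.44, adjusted p = 0.0491). The calls of CPR1, SEC31 and FAS1 were lost without any library but Plus_Rps26 replicate 1 (adjusted p up to 0.0737, 0.0732 and 0.0859). CPR1 and FAS1 also lost theirs with the span length trend removed (edgeR adjusted p of 0.0717 and 0.0591).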
